A study of Homo sapiens with 3 samples.

Results

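The genes described here are named for proteins of the mitochondrial ribosome, though MRPS36 belongs elsewhere and some proteins of this ribosome have other names. They were chosen by name, as every gene in the deposited expression table whose symbol begins with MRPL or MRPS followed by a digit. The rule took 77 of the 15625 genes in the table, 49 named for the large subunit (MRPL) and 28 named for the small subunit (MRPS), and used no measured value. The study profiled polyadenylated RNA of HCT116 cells, an established human colorectal cancer line, after transfection of a short hairpin RNA (shRNA) system. A single library came from cells with a control shRNA (sh_control), and 2 libraries came from cells with shRNA targeting circRAPGEF5, a circular RNA that takes its name from the gene RAPGEF5 (sh_circRAPGEF5_1 and sh_circRAPGEF5_2, called KD1 and KD2). All 3 libraries carry the same genotype label, MT, which the labels do not explain, and cells were collected after 36 or 48 h without a statement of which library had which time. Whether the knockdown libraries stand for different hairpins, different cultures or repeats of 1 culture is not given, so a p-value reflects only how far these libraries spread, and that spread may be technical. The control has no replicate, and its values therefore carry no SD.

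Mitochondria keep their own ribosome, which translates the few proteins encoded by mitochondrial DNA, all of them core subunits of the respiratory chain and ATP synthase. Its ribosomal RNAs are made inside the organelle, whereas its proteins are encoded by nuclear genes, translated in the cytosol and imported. Some of these proteins descend from bacterial ribosomal proteins, and the others were added during mitochondrial evolution and have no bacterial counterpart.

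Levels are given as FPKM, that is, fragments per kilobase of a gene relative to all reads of its library, and a log2 difference is taken on log2(FPKM + 1). FPKM are per length, so levels of different genes can be set side by side. Depth, as the smallest whole reads that the FPKM ratios allow, was 14632390 to 15758794 per library. A member was covered by a median of 591 such reads in the control, 779 in KD1 and 959 in KD2. Of the 10 colorectal epithelial markers looked up, 9 were in the table and 7 had a mean of at least 1 FPKM over the 3 libraries. Of these 7, 3 (the keratins KRT8, KRT18 and KRT19) were above the control in both knockdown libraries, 1 (the adhesion protein CDH1) was below it in both, and 3 (EPCAM, CLDN4 and CDX2) were divided. KRT18 was at 478 FPKM in the control, 652 in KD1 and 885 in KD2, CDH1 was at 33.1, 20.3 and 26.7 FPKM, and EPCAM was at 176, 170 and 191 FPKM. The part of these markers in the members' values was not tested. VIL1 and LGALS4, markers of differentiated enterocytes, were under 1 FPKM in all 3 libraries. Every leukocyte and endothelial marker in the table stayed below 1 FPKM, and of the 3 fibroblast markers in the table COL3A1 and PDGFRB did too. The third, the collagen gene COL1A1, was at 13.4, 4.64 and 8.38 FPKM, lower in both knockdown libraries, and its part in the members' values was not tested. RNA from whole cultures was measured, so fewer cells of a type and less RNA per cell cannot be told apart.

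Most mitochondrial ribosomal protein genes lay above the control in both knockdown libraries. All 77 members passed the filter of a mean of 1 FPKM, and 56 of them (72.7%) were above the control in both libraries, against 31.7% of the 11216 genes tested. Only 4 were below the control in both, against 37.6% of genes tested. Among the 9078 tested genes within the members' own range of mean FPKM, 34.7% were above the control in both libraries. Both differences are taken from the same control library, so they are not independent of each other, and a low value in that library raises both.

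The size of these differences was modest and no single gene passed the test. The median log2 difference of the members was 0.40 in KD1 and 0.50 in KD2, and 0.43 for the mean of both, while the median of all genes tested was -0.05. Across members the mean log2 difference ran from -0.82 in MRPS28 to 1.19 in MRPL36, and the middle 50% of members lay between 0.25 and 0.56. With limma and Benjamini-Hochberg adjustment over all genes tested, 0 members were called, against 0.0178% of all genes. The smallest adjusted p of a member was 0.58. At an unadjusted limma p under 0.05, 4 members were higher (MRPL36, MRPS12, MRPL32 and MRPL17) and 0 were lower, where 3.08% of all genes were higher and 3.99% lower. In 10 members FPKM + 1 was at least 1.5 times the control in both knockdown libraries, against 5.52% of genes tested. In 0 members was it at least 1.5 times lower in both, against 7.4% of genes tested. An exact permutation of 1 control against 2 knockdown libraries has only 3 splits and cannot give a p below 0.33.

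**Figure D1:**
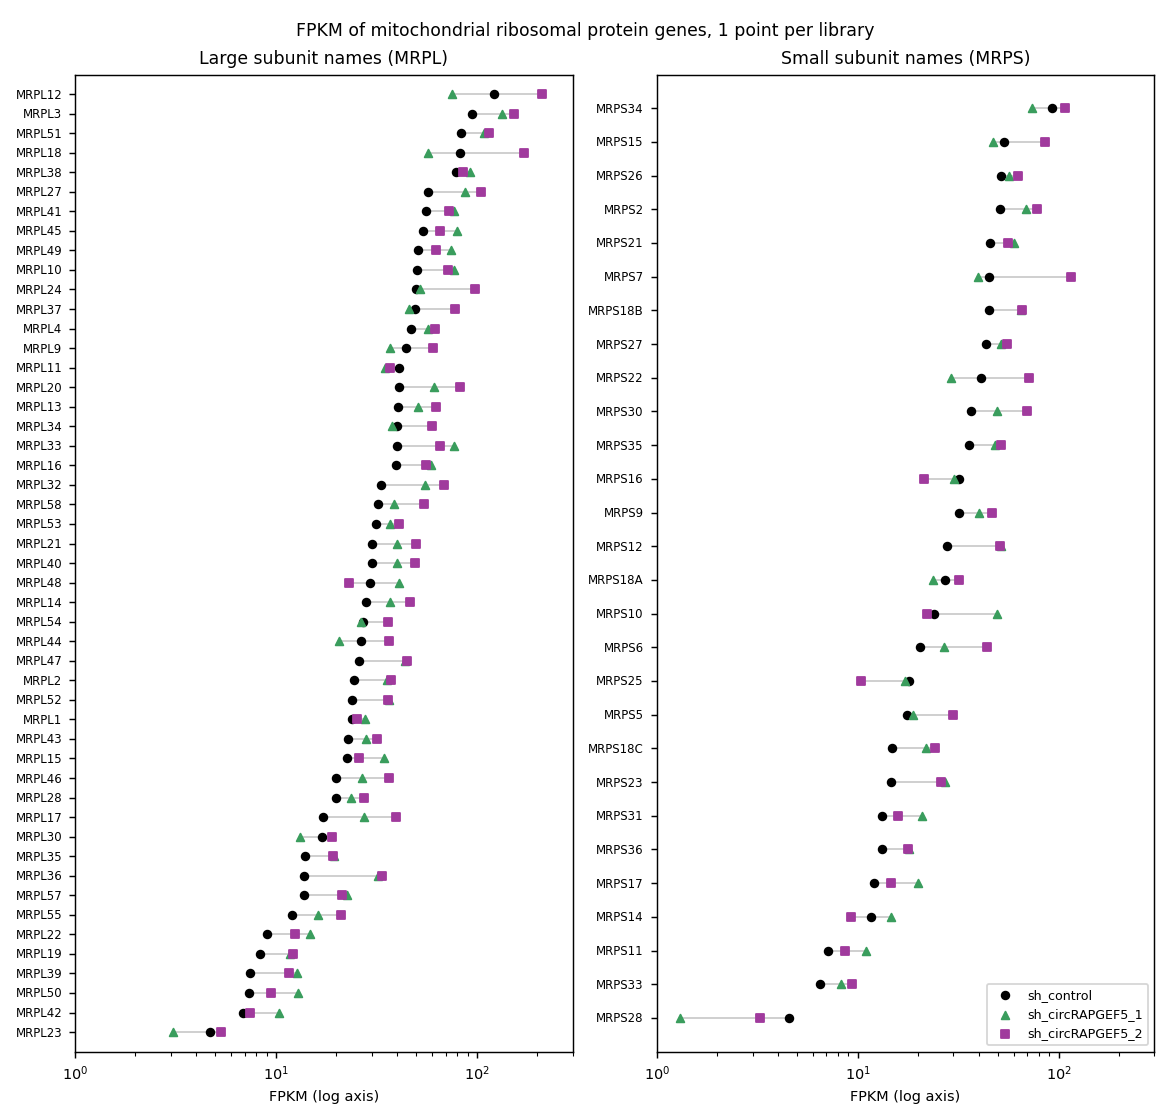
FPKM of each mitochondrial ribosomal protein gene on a log axis, with 1 point per library (black circle, sh_control; green triangle, sh_circRAPGEF5_1; purple square, sh_circRAPGEF5_2), large subunit names on the left and small subunit names on the right, ordered by the control level. The control point is the lowest of the 3 in 56 of 77 genes.

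Of the smallest whole reads that the FPKM ratios allow, members made up 0.377% in the control, 0.478% in KD1 and 0.536% in KD2. A factor common to all libraries of a gene is missing from these reads, so the shares are approximate. Of summed FPKM, members made up 0.713% in the control, 0.873% in KD1 and 1.07% in KD2. The share was lowest in the control and highest in KD2 for both subunits. Large subunit genes took 0.252%, 0.32% and 0.369% of the smallest whole reads, which is 1.27 and 1.46 times the control share. Small subunit genes took 0.125%, 0.158% and 0.168%, or 1.26 and 1.34 times the control share. The read shares weight each gene by its smallest whole reads, so genes with many of these, such as MRPL3, count for more.

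Large and small subunit genes had similar medians, the large subunit's being slightly higher in both libraries. The median log2 difference from the control was 0.46 over the 49 MRPL genes and 0.41 over the 28 MRPS genes. In KD1 the medians were 0.41 and 0.35, and in KD2 they were 0.51 and 0.44, so the large subunit median was above the small subunit median by 0.06 and 0.07. Among genes, the SD of the log2 difference was 0.28 for MRPL and 0.38 for MRPS. Above the control in both libraries were 38 of 49 MRPL genes (77.6%) and 18 of 28 MRPS genes (64.3%), and below it in both were 1 and 3. The ratio of summed FPKM of large to small subunit genes was 2.08 in the control, 2.19 in KD1 and 2.21 in KD2. No test of the large against the small subunit was made, because genes are not replicates and only 3 libraries exist.

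**Figure D2:**
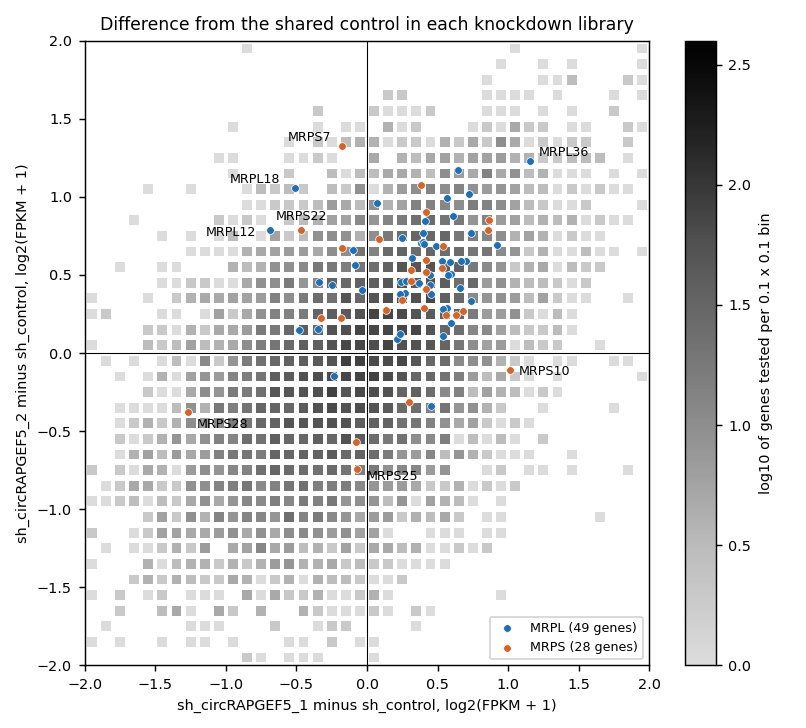
Difference from the shared control on the log2(FPKM + 1) scale in KD1 (horizontal) and KD2 (vertical) for 49 MRPL genes (blue) and 28 MRPS genes (orange), over grey bins that count all genes tested within 2 units of 0 on each axis. Of the members, 56 lie in the upper right quadrant, 4 in the lower left, 14 in the upper left and 3 in the lower right.

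The names do not follow the subunits in every case. MRPS30 and MRPS18A, named for the small subunit, are the large subunit proteins mL65 and mL66 in structures of the human mitoribosome, and MRPS36 belongs to the 2-oxoglutarate dehydrogenase complex of the citric acid cycle. With MRPS30 and MRPS18A counted in the large subunit, the medians were 0.46 and 0.41, as before. With MRPS36 left out, the small subunit median was also 0.41. Members were also placed by structure and ancestry, with the MRPS18 paralogs and MRPS36 left out of this grouping. MRPS18C (bS18m) is thus not counted below among proteins with a bacterial homolog. The 30 large subunit proteins with a bacterial homolog had a median of 0.52, with 23 above the control in both libraries. The 20 of the mitochondrial class had 0.41, with 16 above. The 14 small subunit proteins with a bacterial homolog had a median of 0.41, with 8 above the control in both libraries, and the 9 of the mitochondrial class had 0.29, with 6 above.

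Among large subunit proteins of bacterial descent, MRPL36 stood furthest above the control. MRPL36 (bL36m, a small zinc-binding protein; Entrez 64979, GRCh38 chromosome 5, 1798386 to 1801366 in the GENCODE annotation) was at 13.9 FPKM in the control, 32.1 in KD1 and 33.8 in KD2. KD1 was at 2.31 times and KD2 at 2.44 times the control, so they lay closer to each other than to the control. Its log2 difference was 1.19 ± 0.40 (SE), with a limma unadjusted p of 0.011 and an adjusted p of 0.58. MRPL17 (bL17m, near the exit of the peptide tunnel; chromosome 11, 6680782 to 6683401) was at 17.1 FPKM in the control, 27.4 in KD1 and 39.8 in KD2, a log2 difference of 0.91 ± 0.42 (SE). MRPL32 (bL32m; chromosome 7, 42932200 to 42948958), whose precursor is cut by the mitochondrial m-AAA protease before it joins the ribosome, was at 33.3, 55.5 and 68.4 FPKM, a log2 difference of 0.87 ± 0.40 (SE). For both genes the control was the lowest library and KD2 the highest.

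MRPL33 (bL33m) differed in that KD1 was the higher of the pair, with 40.1 FPKM in the control, 77.0 in KD1 and 65.5 in KD2 (log2 difference 0.81). MRPL20 (bL20m, an early-binding assembly protein in bacteria) was at 40.9, 61.2 and 82.3 FPKM (log2 difference 0.78). MRPL27 (bL27m, a neighbour of the peptidyl transferase centre) was at 56.9, 87.4 and 105 FPKM (log2 difference 0.74). In all 3 of these genes the control lay below both knockdown libraries. MRPL47 (uL29m, at the tunnel exit) was at 26.1 FPKM in the control and nearly level in the knockdown libraries, at 44.2 and 45.1 FPKM. MRPL39 was at 7.44, 12.8 and 11.7 FPKM, and MRPL57 was at 13.8, 22.5 and 21.3 FPKM. These 3 genes, with MRPL36, MRPL17, MRPL32, MRPL33 and MRPL27, are the 8 large subunit genes whose FPKM + 1 was at least 1.5 times the control in both libraries. MRPL20 was just short of that size in KD1, where its log2 difference was 0.57. MRPL52 was at 23.9 FPKM in the control, 36.5 in KD1 and 36.3 in KD2. Its FPKM was 1.53 and 1.52 times the control, but in FPKM + 1 it was just short of 1.5 times in KD2.

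Other core proteins of the large subunit lay closer to the control. MRPL3 (uL3m, which reaches toward the peptidyl transferase centre) had the most reads of all members, counted as smallest whole numbers. It was at 94.8 FPKM in the control, 134 in KD1 and 153 in KD2 (log2 difference 0.59). MRPL4 (uL4m, which lines the peptide tunnel) was at 47.3, 57.2 and 62.0 FPKM, a log2 difference of 0.33. MRPL1 (uL1m, the mobile stalk where spent tRNA leaves) was at 23.8, 27.7 and 25.4 FPKM, a log2 difference of 0.15. In MRPL1 both knockdown libraries were above the control, but by little. MRPL11 (uL11m, part of the platform where translation factors bind) was the only MRPL gene below the control in both libraries, at 41.1 FPKM in the control, 34.8 in KD1 and 37.1 in KD2. Its log2 difference of -0.19 ± 0.39 (SE) was smaller than its standard error.

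MRPL12 and MRPL18 differed more between the knockdown libraries than the mean of these differed from the control. MRPL12 (bL12m, present in several copies as the flexible stalk that recruits translation factors) had the highest control FPKM of all members. It was at 122 FPKM in the control, 75.5 in KD1 and 211 in KD2, with the control between them. MRPL18 (uL18m, a protein of the central protuberance) showed the same order, with 82.5 FPKM in the control, 57.5 in KD1 and 173 in KD2. MRPL10 (uL10m), which anchors the MRPL12 copies, was at 50.6, 77.0 and 72.3 FPKM and did not share that order. MRPL38 (mL38, also in the central protuberance) was at 78.8, 92.7 and 85.7 FPKM, a log2 difference of 0.18. The mean log2 difference of MRPL12 was 0.05 and that of MRPL18 was 0.27, but each is the middle of 2 values of opposite sign.

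Several large subunit proteins carry folds or functions from outside the bacterial core. MRPL58 (mL62), a peptidyl-tRNA hydrolase that became a ribosomal protein, was at 32.4 FPKM in the control, 38.7 in KD1 and 54.7 in KD2 (log2 difference 0.49). MRPL45 (mL45), which ties the ribosome to the inner membrane near the tunnel exit, was at 53.8, 80.1 and 65.8 FPKM (log2 difference 0.43). MRPL44 (mL44), which has a ribonuclease III-like fold, was at 26.5, 20.7 and 36.6 FPKM, with KD1 below the control and KD2 above it. MRPL24 (uL24m, near the tunnel exit) is not one of these, as it has a bacterial homolog. It was at 49.8, 52.3 and 97.9 FPKM, so KD1 was nearly level with the control and KD2 was 1.97 times it. MRPL53 (mL53) was at 31.4, 37.1 and 41.1 FPKM, a log2 difference of 0.30.

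In the small subunit, MRPS12 and MRPS23 were the 2 genes at least 1.5-fold above the control in both libraries. MRPS12 (uS12m, a protein of the decoding centre where codon and anticodon are matched; Entrez 6183, chromosome 19, 38930548 to 38933162) was at 27.9 FPKM in the control, 51.6 in KD1 and 51.2 in KD2. The knockdown libraries were almost equal, and the log2 difference was 0.86 ± 0.39 (SE), and its adjusted p by limma was 0.71. MRPS23 (mS23; chromosome 17, 57834781 to 57850056) was at 14.6, 27.3 and 26.0 FPKM, a log2 difference of 0.82. MRPS6 (bS6m) was at 20.5 FPKM in the control, 27.0 in KD1 and 44.3 in KD2, and MRPS2 (uS2m) was at 51.4, 68.9 and 78.3 FPKM. In both of these genes KD2 was the highest.

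The 3 MRPS18 paralogs descend from a single bacterial protein and sit at different places in the ribosome. MRPS18C (bS18m), in the bacterial position, was at 14.8 FPKM in the control, 21.9 in KD1 and 24.4 in KD2, a log2 difference of 0.61. MRPS18B (mS40), elsewhere in the small subunit, was at 44.8, 65.1 and 65.9 FPKM, a log2 difference of 0.54. MRPS18A (mL66), in the large subunit, was at 27.2, 23.8 and 31.9 FPKM, with the control between the knockdown libraries. MRPS30 (mL65), the other large subunit protein with a small subunit name, was at 36.7, 49.5 and 69.5 FPKM and thus above the control in both libraries.

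Small subunit genes supplied 3 of the 4 members below the control in both libraries. MRPS28 (bS1m) was at 4.54 FPKM in the control, 1.30 in KD1 and 3.27 in KD2, and its log2 difference of -0.82 ± 0.49 (SE) was the lowest of all members. It was also the member with the fewest reads as smallest whole numbers, 31, 9 and 24, so its values may be the least precise. MRPS25 (mS25) was at 18.1, 17.2 and 10.4 FPKM, close to the control in KD1 and lower in KD2 (log2 difference -0.41). MRPS16 (bS16m) followed the same order, with 32.1, 30.3 and 21.4 FPKM (log2 difference -0.32). MRPS26 (mS26) and MRPS27 (mS27, which carries pentatricopeptide repeats that bind RNA) were above the control by little. MRPS26 was at 51.7, 56.8 and 62.7 FPKM, and MRPS27 was at 43.6, 52.0 and 55.5 FPKM.

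For MRPS34, MRPS7, MRPS22 and MRPS10, the FPKM of the control fell between the values of KD1 and KD2. MRPS34 (mS34), the small subunit gene with the highest control level, was at 92.4 FPKM in the control, 73.5 in KD1 and 108 in KD2. MRPS7 (uS7m, a head protein that nucleates assembly in bacteria) was at 45.3, 39.8 and 115 FPKM, so that KD2 was 2.54 times the control while KD1 was slightly below it. MRPS22 (mS22) was at 40.9, 29.2 and 71.2 FPKM, with the same order of libraries. MRPS10 (uS10m, a head protein) went the other way, at 24.0, 49.4 and 22.2 FPKM, with KD1 at 2.06 times the control and KD2 just under it.

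Over all members, KD2 was more often the higher of the pair. It was above KD1 in 49 of 77 members (63.6%), against 51.1% of genes tested, with a median log2 difference of 0.14 between them. The libraries differed by at least 1.5-fold in FPKM + 1 in 18 members (23.4%), 14 of them higher in KD2 and 4 higher in KD1, and in 26.7% of all genes tested. Members above the control in a single library were 14 in KD2 (9 MRPL, 5 MRPS) and 3 in KD1 (MRPL48, MRPS10 and MRPS14). Beside MRPL12, MRPL18, MRPL44, MRPS7, MRPS18A, MRPS22 and MRPS34, the first set held MRPL9, MRPL23, MRPL30, MRPL34, MRPL37, MRPL54 and MRPS15. MRPL37 (mL37) was at 49.1 FPKM in the control, 45.9 in KD1 and 78.2 in KD2, and MRPS15 (uS15m) was at 53.5, 47.1 and 85.7 FPKM. In the smaller set, MRPL48 (mL48) was at 29.6, 40.9 and 23.1 FPKM and MRPS14 (uS14m) at 11.7, 14.7 and 9.26 FPKM. Since each value is a single library, no error can be put on a difference between the knockdown libraries.

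**Figure D3:**
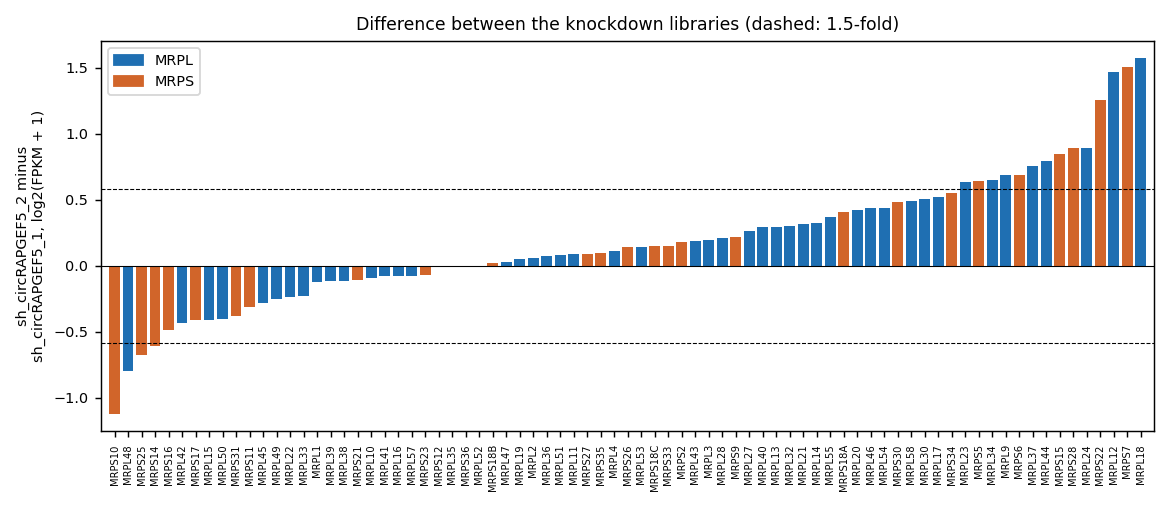
Difference between the knockdown libraries (sh_circRAPGEF5_2 minus sh_circRAPGEF5_1) on the log2(FPKM + 1) scale for each member, MRPL in blue and MRPS in orange, with dashed lines at 1.5-fold. Bars run from MRPS10, higher in KD1, to MRPL18, higher in KD2, and 18 bars pass a dashed line.

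The order of the members by level was largely kept across libraries. Spearman's rho across the 77 genes was 0.92 between the control and KD1, 0.94 between the control and KD2, and 0.90 between the knockdown libraries. These are correlations across genes that share a gene length between libraries, and genes are not independent replicates. The members' mean level was almost unrelated to their difference from the control (rho 0.09 across the same genes). Of the members, 34 have a named pseudogene copy in the gene name table, so reads may be split with near-identical sequences. The strand setting of the counting is not given in the sources used here, so reads of a member and of a gene that overlaps it on the other strand may be mixed. Those 34 had a median log2 difference of 0.42 and the 43 without a named pseudogene had 0.46.

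Promoters of these genes are known for binding sites of ETS factors such as GABPA, of YY1 and of NRF1, general regulators of nuclear genes for mitochondria. RefSeq windows of the GRCh38.p14 assembly, from 250 bases before to 50 bases after the annotated start, matched 68 of the 77 members and were searched on both strands. The ETS letters CCGGAAG were found in 29 of 68 member windows (42.6%), against 20.8% of the 9116 tested genes with a window and 10.7% of all 27305 windows. The YY1 letters ATGGCGGC were found in 18 of 68 (26.5%), against 6.77% of tested genes and 3.21% of all windows. In 67 windows of cytosolic ribosomal protein genes, the ETS letters were found in 23 (34.3%) and the YY1 letters in 5 (7.46%). The NRF1 letters CGCATGCG, which read the same on both strands, were found in 3 windows (4.41%, against 4.07% of tested genes), and the E-box CACGTG bound by MYC and other factors in 6 (8.82%, against 10.5%). A match is a run of letters and does not show that a factor binds there. By subunit there were ETS letters in 17 of 42 MRPL and 12 of 26 MRPS windows, and YY1 letters in 10 of 42 and 8 of 26.

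The YY1 letters lay in the forward direction after the transcription start in 16 of the 18 members, at position 10 to 39, and in 15 members the ATG within them was the annotated start codon. The windows of 30 bases below, 5′ to 3′ on the gene's strand from RefSeq GRCh38.p14, show this shared start in genes of both subunits, with the YY1 letters in capitals.
MRPL46, chr15:88467359-88467388, minus strand: gagaacgaaagATGGCGGCgcccgtaaggc
MRPL58, chr17:75012676-75012705, plus strand: aagacctgagcATGGCGGCcaccaggtgcc
MRPL9, chr1:151763461-151763490, minus strand: tgcctgtgaacATGGCGGCgcccgttgtca
MRPS10, chr6:42217831-42217860, minus strand: ggaccggcaagATGGCGGCgcggacagcgt
MRPS18A, chr6:43687761-43687790, minus strand: ggtttttgaagATGGCGGCcctcaaggctc
MRPS18B, chr6:30617855-30617884, plus strand: cgtacgtcaagATGGCGGCgtctgtattaa
MRPS30, chr5:44808952-44808981, plus strand: cgcgggcaaagATGGCGGCggccaggtgtt
In these windows the letters sit where translation of the imported protein begins, so the same bases are part of the coding sequence.

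Most ETS and NRF1 matches began before the transcription start. Of the members at least 1.5-fold above the control in both libraries, MRPL36, MRPL32, MRPL39 and MRPL57 had neither ETS nor NRF1 letters. The following windows belong to the other members of that size in FPKM + 1, or to MRPL20, which was just short of it. The ETS letters (in either direction) or, for MRPL17, the NRF1 letters are in capitals.
MRPL20, chr1:1407319-1407348, minus strand: cgaccttcgccCCGGAAGtatcgcaggggc
MRPL27, chr17:50373174-50373203, minus strand: acttttcgagaCCGGAAGtgagtgatcgaa
MRPL33, chr2:27771700-27771729, plus strand: cgggccgtgccCCGGAAGcagttgttgttg
MRPL47, chr3:179604659-179604688, minus strand: ggcttgagacgCCGGAAGtgacgctatcgt
MRPS12, chr19:38930928-38930957, plus strand: acggatagcgcCCGGAAGaggctagaagct
MRPS23, chr17:57850040-57850069, minus strand: tggagcagccgCTTCCGGttccggtagcag
MRPL17, chr11:6683402-6683431, minus strand: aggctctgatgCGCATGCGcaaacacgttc
Medians were compared between members with and without the letters, with no test. The 29 members with ETS letters had a median log2 difference of 0.41 and the 39 without had 0.43, and the 18 with YY1 letters had 0.47 against 0.41 for the other 50. The 3 with NRF1 letters had a median of 0.61, against 0.41 for the other 65.

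The transcription factors named for these motifs were measured in the same libraries. NRF1 was at 9.87 FPKM in the control, 7.42 in KD1 and 6.89 in KD2, and GABPA was at 12.8, 8.63 and 11.0 FPKM, both below the control in each knockdown library. YY1 was at 27.2, 22.0 and 28.6 FPKM, on both sides of the control. MYC, a broad activator of ribosome and growth genes, was at 53.7 FPKM in the control, 111 in KD1 and 136 in KD2, a log2 difference of 1.18 ± 0.40 (SE), with 0.58 as its adjusted p by limma. The coactivator PPRC1 was at 19.1, 36.6 and 41.9 FPKM and the nuclear receptor ESRRA at 14.1, 21.1 and 21.8 FPKM. Of the 8 tested regulators of mitochondrial biogenesis, 3 (37.5%) were above and 2 (25%) below the control in both libraries. Among all genes tested these shares were 31.7% and 37.6%. The regulators had a median log2 difference of 0.08 (-0.10 in KD1 and 0.26 in KD2). Of these 8, 0 were called by limma, against 0.0178% of all genes, and 2 (MYC and PPRC1) were higher at an unadjusted p under 0.05, against 3.08% of all genes. Whether these levels have a part in the members' differences was not tested.

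Other genes of mitochondrial translation were counted by class. Among all genes tested, 31.7% lay above the control in both libraries and 37.6% below it in both. Of 5 mitoribosomal proteins without an MRPL or MRPS name, 4 lay above the control in both libraries, with a median log2 difference of 0.47 (0.32 in KD1 and 0.75 in KD2). Among them DAP3, a GTP-binding protein of the small subunit, was at 54.2 FPKM in the control, 97.8 in KD1 and 93.3 in KD2. AURKAIP1 was at 70.7, 79.4 and 122 FPKM, GADD45GIP1 at 28.8, 36.0 and 49.1 FPKM, and CHCHD1 at 25.6, 37.4 and 34.1 FPKM. In these 4 genes the control value was below both knockdown libraries, and in the other gene of the class it lay between them. All 5 proteins share the ribosome with the members other than MRPS36.

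Genes that build the mitoribosome lay on both sides of the control. Of 26 assembly factors, 14 (53.8%) were above it in both libraries and 5 (19.2%) below, against 31.7% and 37.6% of genes tested. Their median was 0.24 (0.40 in KD1 and 0.20 in KD2). MPV17L2, a membrane protein that associates with the large subunit, was at 7.35 FPKM in the control, 13.7 in KD1 and 25.7 in KD2. MRM3, a methyltransferase of the large ribosomal RNA, was at 15.9, 26.0 and 25.9 FPKM. METTL17, which acts on the small subunit, was at 53.0, 37.8 and 39.6 FPKM, and the GTPase MTG1 was at 8.12, 7.46 and 4.80 FPKM, both below the control in each knockdown library.

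Translation factors had 11 of 16 genes (68.8%) above the control in both libraries and 2 (12.5%) below, against 31.7% and 37.6% of genes tested. Their median was 0.45 (0.43 in KD1 and 0.45 in KD2). The initiation factor MTIF2 was at 9.90 FPKM in the control, 19.4 in KD1 and 21.1 in KD2, and SLIRP, a partner of LRPPRC in mitochondrial mRNA stability, was at 77.0, 125 and 157 FPKM. The elongation factor TUFM was nearly level, at 177, 192 and 185 FPKM, and so was OXA1L, the insertase that receives new chains at the inner membrane, at 66.0, 65.04 and 61.7 FPKM. The release factor family member MTRFR was at 9.12, 4.35 and 7.54 FPKM. These 16 genes thus held members on both sides of the control.

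Mitochondrial aminoacyl-tRNA synthetases and the related amidotransferase, which charge the tRNAs used by this ribosome, were about evenly divided. Of 20 genes, 8 (40%) were above the control in both libraries and 7 (35%) below, near the 31.7% and 37.6% of genes tested. Their median was 0.01 (0.11 in KD1 and 0.03 in KD2). GATB, an amidotransferase subunit, was at 12.1, 17.9 and 27.1 FPKM, and YARS2 was at 12.9, 16.9 and 22.4 FPKM. HARS2 was at 47.2, 23.0 and 41.4 FPKM. GATB and YARS2 thus lay above the control in both knockdown libraries, and HARS2 lay below it.

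Genes for mitochondrial transcription and RNA processing had the highest median of these classes, 0.60 (0.48 in KD1 and 0.59 in KD2). Above the control in both libraries were 11 of 12 (91.7%) and below it 0, against 31.7% and 37.6% of genes tested. The helicase SUPV3L1, which unwinds RNA for decay in the matrix, was at 13.9 FPKM in the control, 29.8 in KD1 and 33.1 in KD2. The transcription factor TFB2M was at 14.1, 28.4 and 32.2 FPKM, the DNA-packaging protein TFAM at 7.62, 11.0 and 14.8 FPKM, and the RNA polymerase POLRMT at 31.2, 42.1 and 59.4 FPKM. Of the 11 genes above the control in both libraries, those with the lowest mean differences were MTERF1, at 4.36, 5.23 and 5.57 FPKM, and TRMT10C, at 18.1, 18.5 and 27.3 FPKM. In these 5 classes limma called 0 genes, against 0.0178% of all genes tested. At an unadjusted limma p under 0.05 were 4 genes, MPV17L2, MTIF2, TFB2M and SUPV3L1, all higher, where 3.08% of all genes were higher and 3.99% lower.

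**Figure D4:**
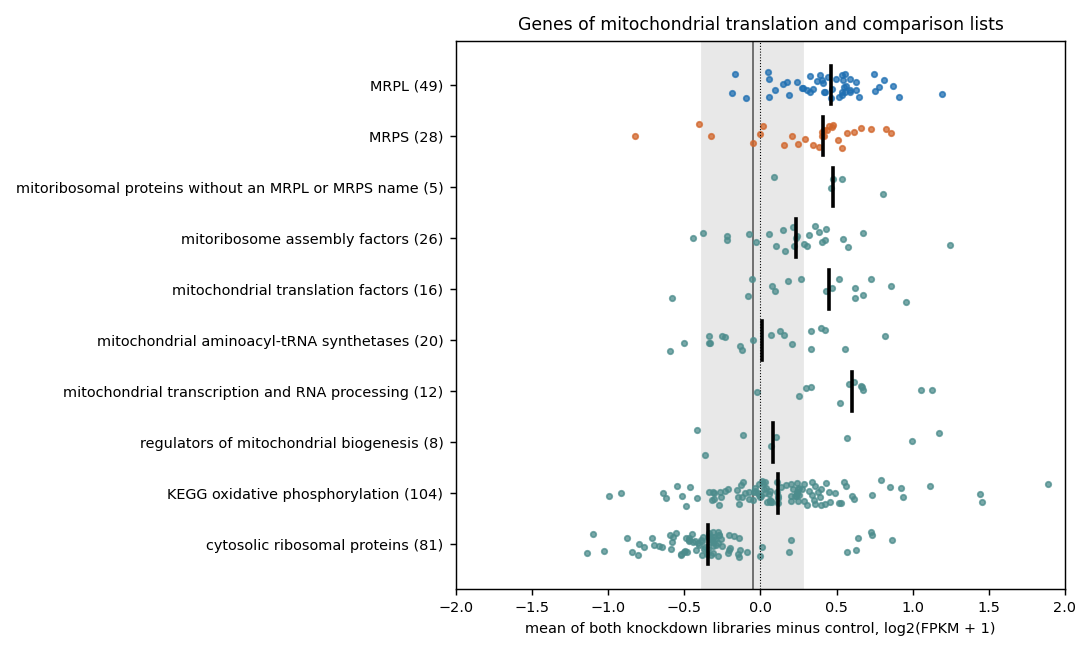
Mean of both knockdown libraries minus the control on the log2(FPKM + 1) scale, 1 point per tested gene with vertical scatter only for legibility, by gene list; thick bars are list medians, the grey band spans the middle 50% of all genes tested, the grey line is their median and the dotted line is 0. Medians were 0.46 for MRPL, 0.41 for MRPS, 0.60 for mitochondrial transcription and RNA processing, and -0.35 for cytosolic ribosomal proteins.

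Cytosolic ribosomal protein genes, which encode the other ribosome of the cell, lay on the opposite side. Of 81 tested, 63 (77.8%) were below the control in both libraries and 8 (9.88%) above, against 37.6% and 31.7% of all genes tested. Their median log2 difference was -0.19 in KD1 and -0.48 in KD2. They took 8.51% of the smallest whole reads in the control, 6.76% in KD1 and 5.98% in KD2. Of summed FPKM they took 21.4% in the control, 17.0% in KD1 and 15.2% in KD2. FPKM are scaled to the reads of each library and are thus shares of a total. After rescaling of the libraries by the median ratio over genes, the medians were 0.51 for MRPL and 0.45 for MRPS, and 57 members lay above the control in both libraries. The KEGG ribosome pathway that the authors attached to the table holds both kinds. Its 43 MRPL and MRPS genes had a median of 0.46 with 30 above and 2 below the control in both libraries, and its other 84 tested genes had a median of -0.34 with 9 above and 64 below. The pathway as a whole therefore mixes genes on both sides of the control. The 104 tested genes of KEGG oxidative phosphorylation, which include the partners of the proteins that the mitoribosome makes, had a median of 0.11. Of them 49 (47.1%) were above the control in both libraries and 17 (16.3%) below, and the median was 0.20 in KD1 and 0.07 in KD2. The cytosolic and KEGG lists were taken up after values of these data had been seen.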

How the data were processed

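Per the labels' protocols, TRIzol and a mirVana kit gave the RNA, and the library kit was TruSeq Stranded mRNA LT, which selects polyadenylated RNA. The deposited FPKM were computed by the authors for each library. Reads were handled with Trimmomatic and HISAT2 on GRCh38.p13, per the submitters' processing notes. Their versions, how fragments were counted, whether strand was used and which annotation served were not given in the sources used here. KEGG pathway names are annotation text that the authors deposited with the table.

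FPKM of the 3 libraries matched whole-number ratios in 100% of genes (relative tolerance 1e-09), and the smallest such whole numbers are given as reads. The whole numbers allowed were large enough that nearly any values would match, so this does not show that whole reads underlie the FPKM. A factor common to all libraries of a gene does not show in ratios, so true reads may be more. Genes with a mean FPKM of at least 1 (11216 of 15625) were tested on log2(FPKM + 1), which understates changes of low genes, by limma 3.58.1 (R 4.3.3) using a mean-variance trend, Benjamini-Hochberg adjustment and a threshold of 0.05. There was 1 residual degree of freedom and limma added 10.92, so the lone control is assumed to vary like the knockdown libraries. Simulated data were used to check the fitting step. Tables were made with pandas 2.3.3 in Python 3.11.15.

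Gene positions are from GENCODE, and promoter windows from RefSeq (GRCh38.p14, the first window listed per gene). Named in each subunit set were the 5 highest and 5 lowest mean differences among genes on the same side of the control in both libraries, the 3 with the highest FPKM and the 3 that differed most between the knockdown libraries, plus 10 genes listed by name and up to 4 genes of each other list, with regulators. A gene that this rule takes is not reported here. Other genes (MRPL9, MRPL10, MRPL23, MRPL27, MRPL30, MRPL34, MRPL37, MRPL39, MRPL47, MRPL48, MRPL52, MRPL54, MRPL57, MRPS14 and MRPS15) were named after their values were seen. The members, lists and rules were chosen with earlier results of these data known.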

Additional observations from a re-analysis of the deposited data

How the results depend on the processing

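Members called by limma stayed at 0 under all 9 alternatives, and members at an unadjusted p under 0.05 numbered 1 to 6. Members above the control in both libraries numbered 54 to 57 under other pseudocounts, filters and scalings, and the median of all genes stayed between -0.06 and 0.02. With a pseudocount of 5 the median was 0.391 for MRPL and 0.341 for MRPS, and 6 members were at least 1.5-fold higher in both libraries. With quantile normalization the MRPL median was 0.392, and the sign turned for MRPL12 (-0.0709), MRPS18A (-0.0618), MRPL44 (-0.0223) and TUFM (-0.0474). With 1 knockdown library left out, only the other has to pass: the MRPS median was 0.347 or 0.438, 18 or 7 members were lower, 18 or 32 at least 1.5-fold higher and 2 or 1 at least 1.5-fold lower, first without KD2 and then without KD1. In the same order the log2 difference was -0.6854 or 0.7851 for MRPL12, -0.5131 or 1.0574 for MRPL18, -0.3248 or 0.2265 for MRPS34, -0.1802 or 1.3233 for MRPS7, -0.4708 or 0.7852 for MRPS22, 1.0123 or -0.108 for MRPS10, -0.1864 or 0.222 for MRPS18A, -0.3404 or 0.4523 for MRPL44 and -0.2949 or 0.0685 for YY1. The 34 named members kept their sign in 200 of 203 values with both libraries, and the other named genes in 173 of 174. No paired analysis was possible because the single control library carries no replicate number. By the smallest whole reads, depth limits MRPS28 most, with 9 to 31 per library, though true reads may be more.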

Other observations

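Several mitochondrial ribosomal protein genes share a promoter region with a gene read from the other strand. By RefSeq positions, 21 of the 68 members with a window had such a neighbour whose start lay within 500 bases, and in 13 pairs with a gene outside the family both were tested. The pairs were looked at after values of these data had been seen. The partners had a median log2 difference of 0.01, with 3 above the control in both libraries, 5 below and 5 divided. Among all genes tested, 31.7% were above the control in both and 37.6% below, with a median of -0.05. The members of these pairs had a median of 0.54, with 9 above. Whether the shared promoter region has a part in these values was not tested. MRPS12 was at 27.9 FPKM in the control, 51.6 in KD1 and 51.2 in KD2, and SARS2, the mitochondrial seryl-tRNA synthetase that starts 181 bases away, was at 19.7, 18.1 and 13.2 FPKM. The member lay above the control and its partner below it in both libraries.

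MRPL27 was at 56.9, 87.4 and 105 FPKM, and EME1, a subunit of a DNA endonuclease whose start is 45 bases away, was at 16.5, 8.32 and 8.36 FPKM, again on the other side of the control. MRPL57 was at 13.8, 22.5 and 21.3 FPKM, and SKA3, a kinetochore protein that starts 106 bases away, was at 20.0, 8.93 and 16.0 FPKM. MRPL32 was at 33.3, 55.5 and 68.4 FPKM and the proteasome subunit PSMA2, 202 bases away, at 72.7, 78.1 and 101 FPKM, both above the control in each knockdown library. Of the 13 pairs, 2 had member and partner above the control in both libraries. MRPL18 was at 82.5, 57.5 and 173 FPKM, and the chaperonin subunit TCP1, 210 bases away, was at 199, 215 and 370 FPKM, with KD2 the highest for both, while in KD1 MRPL18 was below the control and TCP1 above it. MRPL46 and MRPS11 are both members and start 320 bases apart. MRPL46 was at 20.0, 26.9 and 36.7 FPKM and MRPS11 at 7.15, 11.0 and 8.66 FPKM, each lowest in the control.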
